A study of Mus musculus with 8 samples.

Results

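This account follows 34 genes of the oxygen-sensing and glycolysis programme in mouse bone marrow stroma, the mesenchymal stem cells that carry the leptin receptor (LEPR+). They were chosen by gene symbol, with no measured value in the rule, though earlier results of these data were known at that time. The genes fall on 35 of the 52636 gene rows of a bulk RNA count matrix, because a second gene ID is also annotated as Aldoa. The cells came from C57BL/6 mice given 150 µg of an immunoglobulin into a vein each week for 3 weeks. In 4 libraries it was LTβR-Ig, a soluble decoy receptor that captures lymphotoxin β receptor ligands, and in the other 4 it was HEL-Ig, a control IgG1 against hen egg lysozyme. All mice therefore received an injected antibody-like protein, and no uninjected mice were analysed here. Long bone marrow was digested with collagenase, and living LEPR+ cells that lacked the blood antigens CD45 and Ter119 and the endothelial antigens CD31 and CD144 were taken by a double sort. The libraries are described as 4 pairs, with no word on what makes a pair. Whether each library stands for a separate mouse is not in the labels; p-values here measure only the spread between libraries, which may be technical.

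Cells read oxygen through hypoxia-inducible factors (HIFs). While oxygen is present, prolyl hydroxylases mark the HIF α subunits, the VHL protein binds the mark, and the subunits are degraded. When oxygen is low the α subunits persist, pair with ARNT and bind a short core sequence in promoters and enhancers of their targets, among them glucose transporters, most glycolytic enzymes, lactate dehydrogenase A, VEGF and mitophagy receptors. The HIF α proteins are regulated mainly through their stability, which RNA counts do not measure. Bone marrow is a low-oxygen tissue, and marrow stromal cells are known for a strongly glycolytic metabolism.

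The core motif and the 2 lactate dehydrogenase promoters are shown first because the balance of the A and B subunits of this enzyme is one of the measures in which the groups did not overlap. RefSeq promoter windows on GRCm38.p6, from 250 bases before to 50 after each annotated start, were found for 31 of the 34 genes, with none for Epas1, Bnip3l and Ndrg1. The letters ACGTG and GCGTG were each searched on both strands. A palindromic CACGTG counts as an ACGTG match on either strand. The bases before the first annotated Ldha start (chr7:46845554-46845803, plus strand) and before the Ldhb start (chr6:142507958-142508207, minus strand) are printed from 5′ to 3′ with every ACGTG, on either strand, in capitals.
Ldha: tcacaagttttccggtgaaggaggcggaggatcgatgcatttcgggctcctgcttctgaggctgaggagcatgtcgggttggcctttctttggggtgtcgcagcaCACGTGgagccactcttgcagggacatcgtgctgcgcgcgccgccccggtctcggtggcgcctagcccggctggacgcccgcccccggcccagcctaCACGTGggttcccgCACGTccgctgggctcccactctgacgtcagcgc
Ldhb: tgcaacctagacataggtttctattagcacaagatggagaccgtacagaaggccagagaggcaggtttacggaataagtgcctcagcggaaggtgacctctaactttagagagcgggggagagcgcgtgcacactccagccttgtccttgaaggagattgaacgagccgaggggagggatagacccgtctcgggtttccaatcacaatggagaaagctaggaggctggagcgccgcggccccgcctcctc

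The first Ldha window held 5 ACGTG matches, 4 of them from 2 palindromes, and the Ldhb window held 0. A window at a second annotated Ldha start held 0 ACGTG as well. GCGTG, which is not capitalised above, occurred in both Ldha windows, with at most 2 matches in either. The Ldhb window held 1 GCGTG, at -126 from the start. The contrast between the genes therefore holds for ACGTG and not for both forms. Both collagen prolyl 4-hydroxylase genes had ACGTG. The stretches that follow stand around it, with the core in capitals, at chr10:59323272-59323292 for P4ha1 and at chr11:54100838-54100858 and chr11:54100926-54100946 for P4ha2, all on the plus strand.
P4ha1: acagagcgCACGTagcgaggg
P4ha2, first: catcgcatACGTGcagcgcgt
P4ha2, second: aggtggggACGTGgcggaggc

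Over the 31 genes with a window, 22 held at least 1 ACGTG, which is 70.97%, against 5886 of 27025 genes in the whole table, or 21.78%. The corresponding shares for GCGTG were 61.29% and 35.15%, and for the palindrome CACGTG 16.13% and 8.093%. The 9 members without ACGTG in the window were Eno1, Eno2, Gpi1, Ldhb, Pdk1, Pfkl, Pfkp, Tpi1 and Vhl. Of these, Eno1, Ldhb, Pdk1, Pfkl and Pfkp held GCGTG. Either form was present in 27 of the 31 genes, or 87.1%, against 46.73% of all genes. Windows of the members were richer in G and C, with a median of 62.33% against 52.67% over all windows, and the part of base composition in the difference was not tested. A gene with several windows was counted when any of them held the letters. By window, ACGTG was in 55.56% of the 45 member windows and in 19.62% of all 32851. Known HIF targets are on the list by choice, so a higher share is not an independent result. A match of these letters is a description of the window and not a bound site.

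Total gene counts ran from 52378101 to 61164510 in LTβR-Ig libraries and from 56466028 to 64403177 in control libraries. The 35 rows took 0.3984 to 0.4793% of the counts in LTβR-Ig libraries and 0.4593 to 0.4742% in control libraries. Of the LEPR+ stroma markers, Cxcl12 averaged 19070 CPM in LTβR-Ig and 16380 CPM in control libraries, and Lepr 3907 and 4305 CPM, where CPM means gene counts scaled to library size in the usual CPM unit, with TMM factors. Of the 10 stroma markers 0 passed the adjusted threshold and 2 were lower at an unadjusted p under 0.05, Kitl with a log2 fold change of -0.58 and Pdgfra with -0.29. Of 8 osteoblast markers 0 passed and 3 were higher at that limit, Alpl with 0.95, Sp7 with 0.95 and Phex with 0.34. Dmp1 with 0.91, Spp1 with 0.61, Bglap with 0.45, Col1a1 with 0.41 and Ibsp with -0.07 did not reach it. The osteoblast list took 1.306 to 2.101% of counts in LTβR-Ig and 1.208 to 2.547% in control libraries. For all 16045 tested genes, 544 were higher and 470 lower at the same limit, or 6.32% in either direction. The part of these cell markers in the differences described for the members was not tested. Erythroid markers, which the Ter119 gate should remove, took 2.237 to 4.231% of counts in LTβR-Ig and 2.227 to 5.563% in control libraries, with the highest share in control 3. Other blood markers were present too, given as LTβR-Ig and then control libraries. Neutrophil markers took 0.462 to 0.9043% and 0.413 to 0.9495% of counts. Megakaryocyte and platelet markers took 0.09035 to 0.3535% and 0.0606 to 0.2572%. B and plasma cell markers took 0.0142 to 0.1034% and 0.02056 to 0.1253%. Monocyte and macrophage markers, a list that includes the stroma marker Vcam1, took 0.5422 to 0.6904% and 0.5711 to 0.66%. Endothelial markers took 0.003106 to 0.02608% in LTβR-Ig and 0.004649 to 0.01301% in control libraries. The first principal component of all tested genes, with 19.46% of the variance, did not follow the groups. It placed replicates 1 and 2 of both groups at one end, from 23.02 to 30.48. Replicates 3 and 4 of both groups had negative values, from -37.13 to -7.293, with LTβR-Ig 4 nearest the middle. What libraries of the same number share is not in the labels. In bulk RNA, fewer cells of a type and less RNA per cell cannot be told apart.

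Of the 34 genes, 33 entered the test and Aldoc and the second Aldoa ID did not, since their counts were too low. None of the 33 passed an adjusted p of 0.05 in the edgeR quasi-likelihood F test, adjusted by Benjamini-Hochberg over 16045 genes, in either direction. Over all genes 6 passed, or 0.0374%, all lower in LTβR-Ig libraries. At an unadjusted p under 0.05, 2 members, Epas1 and Ldhb, were lower and 0 were higher. The share of all genes past that limit was 2.93% in the lower direction and 6.32% in either direction, so 2 of 33 members lies near the background. Groups did not overlap for 1 member, Ldhb, where the share over all genes was 4.89%. The DESeq2 Wald test and limma-voom also called 0 members at the adjusted threshold.

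Fold changes are given as log2 of LTβR-Ig over control. Over the 33 tested genes they ranged from -0.63 to 0.51 with a median of 0.017, where the median of all genes was -0.0021. There were 17 positive and 16 negative values. The 95% interval lay within 1 log2 unit of no difference on both sides for 22 of the 33 members. Over all tested genes this held for 7455 of 16045. A 2-fold difference of means lies outside the interval of these 22 members. For the other 11, which include Epas1 and P4ha2 as well as genes of low counts such as Egln3 and Car9, the interval reached past 1 log2 unit.

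**Figure D1:**
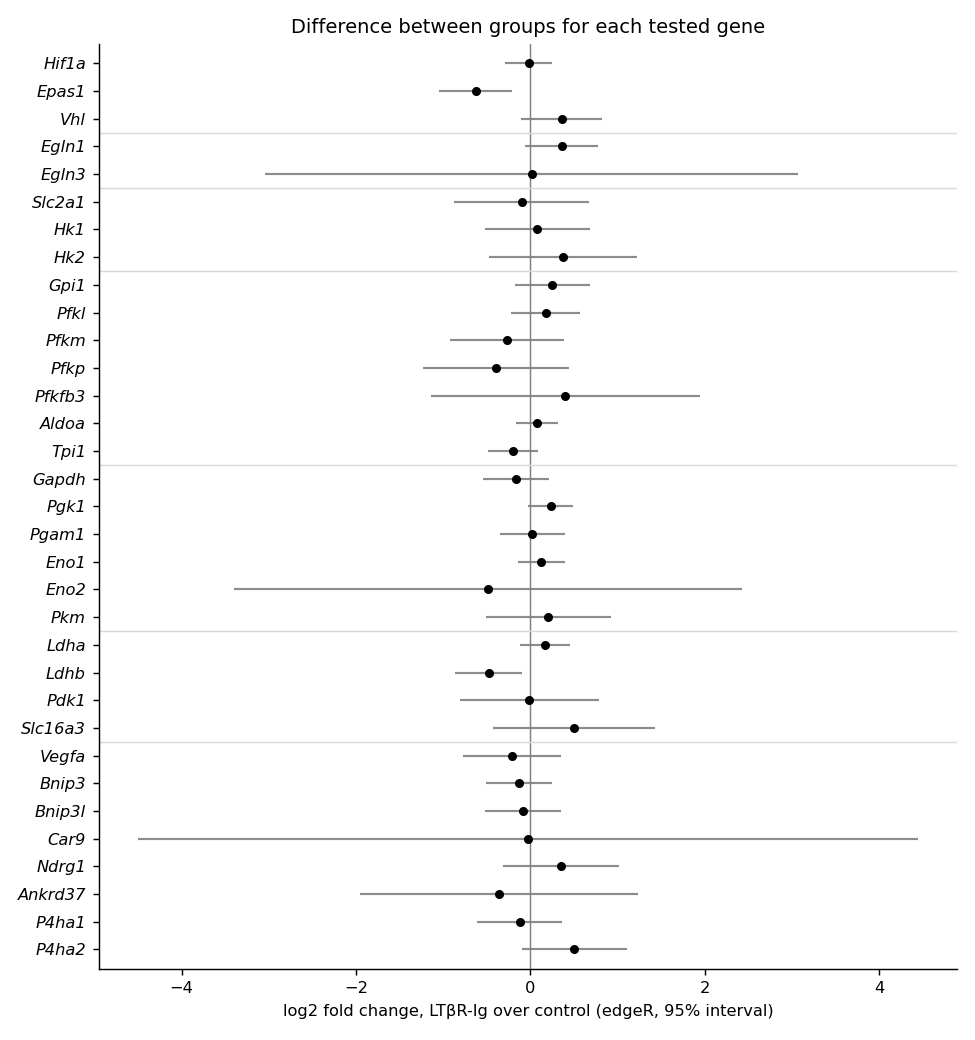
Log2 fold change, LTβR-Ig over control, of the 33 tested genes, grouped by role. Points are edgeR estimates and bars 95% intervals from 4 libraries per group; the intervals of Epas1 (-1.04 to -0.21) and Ldhb (-0.87 to -0.09) lie below 0, unadjusted for the number of genes tested.

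The level of each gene was set on a scale that corrects for length, as TPM over merged exons, which sums to the same total in each library. Merged exons are as long as any single transcript or longer, so genes with many annotated isoforms can read low on this scale. The effect differs by gene. Egln1 has 3594 bases in merged exons and in its longest coding transcript, and Pfkp has 13401 against 4145. Aldoa, the aldolase of muscle and most other tissues, was the highest member, with 602 ± 65.1 TPM in LTβR-Ig and 571 ± 50.2 TPM in control libraries (SD, n = 4 each). It ranked 235th of all gene rows by mean control TPM. Epas1 followed at 338 ± 84.5 and 521 ± 91.9 TPM, Ldha at 435 ± 20.9 and 388 ± 72.5 TPM, Bnip3l at 201 ± 39.3 and 212 ± 42.4 TPM, and Ldhb at 140 ± 27.2 and 196 ± 41.1 TPM, each with LTβR-Ig given before control. This order is that of the control means; in LTβR-Ig libraries Ldha stood above Epas1. Per length of the longest coding transcript Ldha also led Epas1, at 793 against 342 TPM in LTβR-Ig and 708 against 528 TPM in control libraries, and Eno1 had 555 TPM in LTβR-Ig and 508 TPM in control libraries. Bnip3l, Ldhb and Eno1 did not differ beyond their spread in control libraries, Eno1 standing at 209 ± 22.0 TPM in LTβR-Ig and 191 ± 18.9 TPM in control libraries. At the low end, Egln3, Eno2 and Car9 averaged between 1.04 and 1.42 TPM in either group, and Aldoc 0.756 and 0.164 TPM in LTβR-Ig and control libraries.

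**Figure D2:**
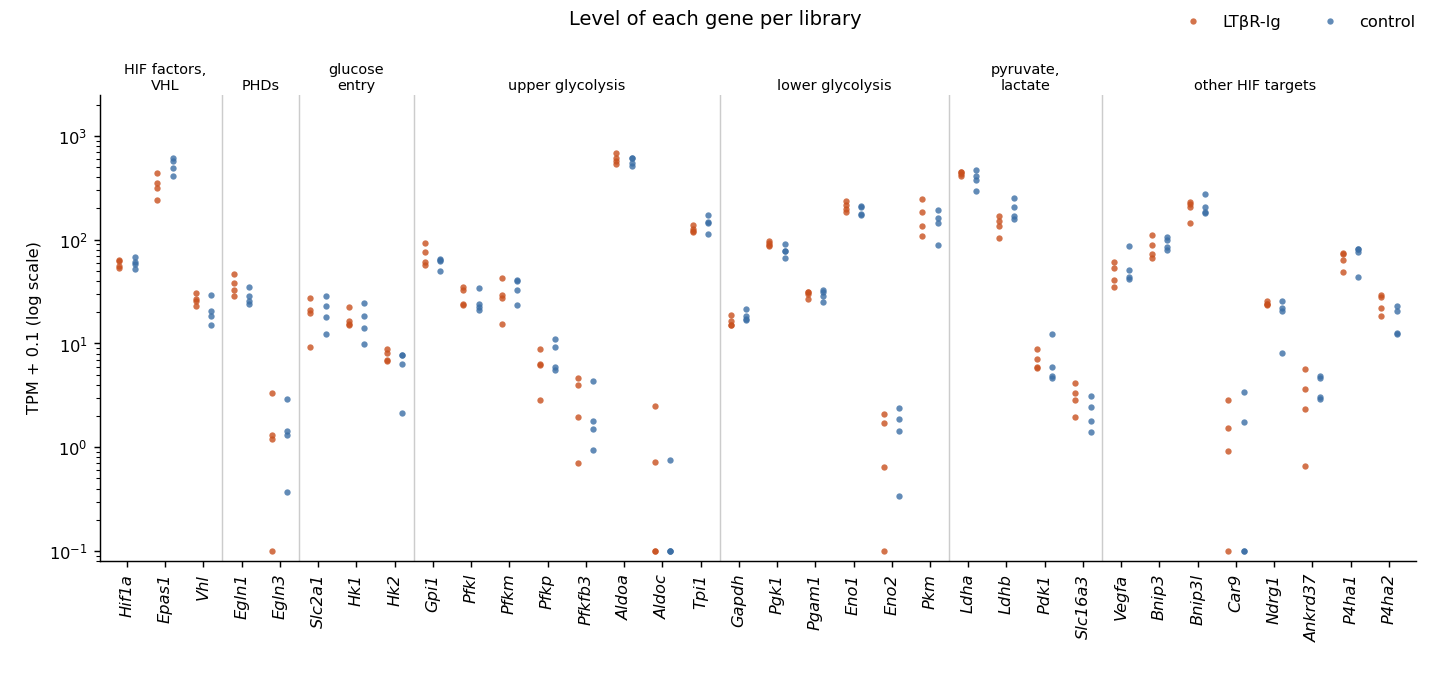
Level of each of the 34 genes in every library, as TPM + 0.1 on a log axis, with LTβR-Ig points left of control points for each gene. Aldoa, Epas1 and Ldha lie highest and Aldoc, Car9, Egln3 and Eno2 lowest, and the points of both groups intermingle for most genes.

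Along the pathway the TPM summed over the members of each step was uneven. Aldolase and lactate dehydrogenase carried the highest sums, 602.5 ± 65.2 and 574.6 ± 36.8 TPM in LTβR-Ig libraries and 571.6 ± 50.7 and 583.7 ± 100.4 TPM in control libraries. Hexokinase traps glucose in the cell as glucose 6-phosphate. Its members Hk1 and Hk2 summed to 25.0 ± 3.16 TPM in LTβR-Ig and 22.6 ± 8.65 TPM in control libraries. Hk3, a hexokinase gene outside the member list, is not in this sum. It averaged 18.65 TPM in LTβR-Ig and 22.39 TPM in control libraries. Phosphofructokinase, the main control point of the pathway, summed to 63.3 ± 15.1 and 67.4 ± 10.8 TPM. In all 11 steps the ranges of both groups overlapped.

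Gapdh, which oxidises glyceraldehyde 3-phosphate and is widely used as a reference gene, read 16.3 ± 1.78 TPM in LTβR-Ig and 18.3 ± 2.07 TPM in control libraries. Its longest coding transcript has 1420 bases and its merged exons 4133. Per length of that transcript its control mean was 53.2 TPM, above the 32.8 TPM of Pgam1 on the same scale. Of the stretches of read length (76 bases) in that transcript, 80.22% also occur in transcripts of 118 other genes, 111 of them pseudogenes. How reads with several genomic matches were counted is not stated, and the part of shared reads in the low value was not tested. The same measure was 67.49% for Pgk1, 65.16% for Eno1, 45.69% for Bnip3, 40.59% for Pgam1 and 19.05% for Pkm, and 0% for Epas1, Hk2, Pfkl, Pfkm, P4ha1, P4ha2 and Vegfa. Levels of the genes with a high share of shared stretches are uncertain.

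**Figure D3:**
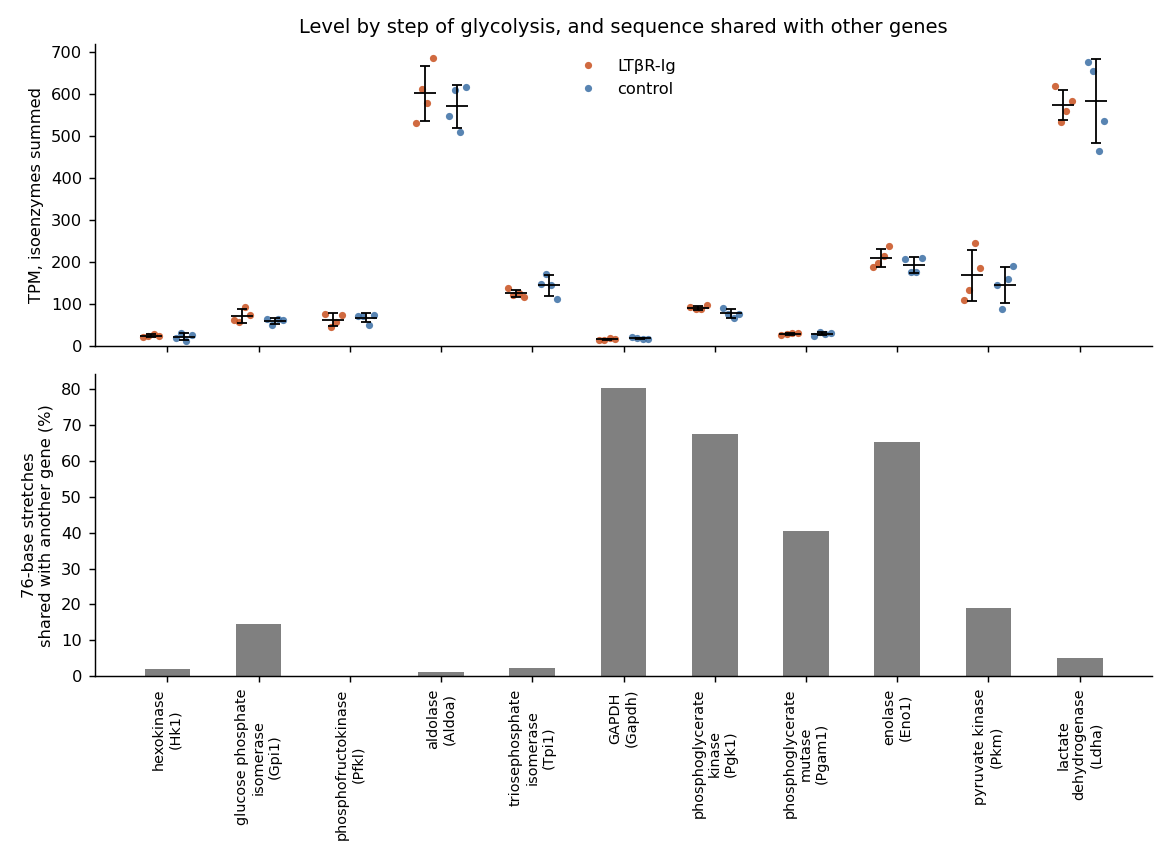
Top, TPM summed over the member genes of each glycolytic step in every library, LTβR-Ig left of control. Bottom, percent of 76-base stretches in the longest coding transcript of 1 enzyme gene per step that also occur in other genes. Gapdh has the lowest group means in the top panel (16.3 and 18.3 TPM), although the sum of Hk1 and Hk2 was lower in control 1 and control 3. That place depends on merged exon length. Per length of the longest coding transcript Gapdh read 47.3 and 53.2 TPM in LTβR-Ig and control libraries, above Pgam1 at 33.2 and 32.8 TPM. In the bottom panel Gapdh has the highest share, 80.22%.

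The HIF α subunits come first among the comparisons because they stand at the head of the pathway. Epas1, which encodes HIF-2α, was read at 654, 781, 537 and 927 CPM in LTβR-Ig libraries 1 to 4, against 1052, 1259, 1270 and 895 CPM in control libraries 1 to 4. Only LTβR-Ig 4 reached into the control range, just above control 4. The log2 fold change was -0.63 ± 0.18 (SE) with an interval of -1.04 to -0.21 and an unadjusted p of 0.0079 in edgeR's test. The adjusted p was 0.471, so the difference did not pass. Across all alternatives the log2 fold change stayed between -0.50 and -0.77, and the smallest adjusted p, 0.082, came from DESeq2.

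Hif1a, which encodes HIF-1α, had 121, 149, 127 and 137 CPM in LTβR-Ig libraries and 132, 130, 159 and 120 CPM in control libraries. The groups overlapped fully, and the log2 fold change was -0.02 with an interval of -0.29 to 0.25. Per length, Epas1 exceeded Hif1a by 4.46 to 7.14 times in LTβR-Ig libraries and by 7.86 to 10.2 times in control libraries. Vhl, the substrate receptor of the ubiquitin ligase that removes HIF α, had 28.3, 32.0, 27.7 and 33.97 CPM in LTβR-Ig libraries and 23.8, 32.0, 21.8 and 17.5 CPM in control libraries. LTβR-Ig libraries stood above control 1, 3 and 4, while control 2 lay among them, and the log2 fold change of 0.36 had an interval of -0.11 to 0.83.

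The prolyl hydroxylase genes Egln1 and Egln3 encode PHD2 and PHD3. Egln1 had 43.7, 54.5, 41.6 and 62.7 CPM in LTβR-Ig libraries, against 36.0, 37.8, 34.3 and 49.5 CPM in control libraries. Its log2 fold change was 0.36 ± 0.18 with an interval of -0.06 to 0.78, and only control 4 fell within the LTβR-Ig range. Egln3 was low and uneven, at 0, 1.17, 3.46 and 1.21 CPM in LTβR-Ig and 1.26, 1.30, 0.285 and 2.92 CPM in control libraries, and its interval of -3.04 to 3.07 leaves its difference undetermined. A value of 0 CPM stands for 0 counts, which allows a level of up to 0.0458 to 0.0584 CPM (3 counts), counting error only.

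Glucose enters these cells through carriers such as GLUT1, encoded by Slc2a1. Its level was 25.1, 29.2, 12.7 and 35.6 CPM in LTβR-Ig libraries and 24.2, 36.9, 17.3 and 31.3 CPM in control libraries, with replicate 3 lowest in both groups. Hk1, the housekeeping hexokinase, had 47.3, 52.5, 77.1 and 52.7 CPM in LTβR-Ig and 45.9, 76.3, 33.7 and 61.2 CPM in control libraries. Hk2, the inducible form, had 14.9, 21.04, 16.3 and 17.9 CPM in LTβR-Ig and 14.6, 16.7, 4.89 and 17.9 CPM in control libraries. Control 3 was the lowest library for both hexokinases. The log2 fold changes were 0.08 for Hk1 and 0.38 for Hk2, with intervals of -0.52 to 0.68 and -0.47 to 1.22. Without control 3 the value for Hk2 was 0.10.

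In upper glycolysis, Gpi1, which turns glucose 6-phosphate into fructose 6-phosphate, averaged 179 ± 45.3 CPM in LTβR-Ig and 150 ± 22.7 CPM in control libraries. Pfkl, the liver-type phosphofructokinase, had 80.0, 62.0, 63.5 and 87.9 CPM in LTβR-Ig libraries and 54.6, 82.4, 59.8 and 62.5 CPM in control libraries. Pfkm, the muscle type, had 52.2, 20.3, 36.9 and 36.8 CPM in LTβR-Ig libraries, against 53.0, 40.1, 31.3 and 51.5 CPM in control libraries. The ranges of both genes overlapped, with log2 fold changes of 0.18 and -0.27. Leaving out 1 library at a time gave 0.078 to 0.32 for Pfkl, lowest without LTβR-Ig 4, and -0.48 to -0.066 for Pfkm, nearest to 0 without LTβR-Ig 2.

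Pfkp, the platelet type, had 13.6, 33.5, 33.2 and 43.6 CPM in LTβR-Ig and 47.9, 28.4, 29.5 and 57.2 CPM in control libraries. Its exons share 748 bases with Pitrm1 on the opposite strand, a gene with 42402 counts over the 8 libraries against 16599 for Pfkp. The strand setting of the counting is not given in the sources used here, so reads of these genes may not be told apart. Pfkfb3, which makes the activator fructose 2,6-bisphosphate, ranged from 1.83 to 13.7 CPM in LTβR-Ig and from 2.55 to 12.4 CPM in control libraries.

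Aldoa had 570, 709, 676 and 747 CPM in LTβR-Ig libraries and 619, 646, 594 and 699 CPM in control libraries. It was measured with the narrowest interval of the members, -0.16 to 0.32 around a log2 fold change of 0.08. Aldoc, the brain form, had 0, 3.13, 0.811 and 0 CPM in LTβR-Ig libraries and 0, 0, 0 and 0.836 CPM in control libraries. Tpi1, which interconverts the triose phosphates, averaged 133 ± 8.43 CPM in LTβR-Ig and 153 ± 22.1 CPM in control libraries, a log2 fold change of -0.20.

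In lower glycolysis, Pgk1, the first ATP-yielding enzyme, averaged 79.1 ± 2.47 CPM in LTβR-Ig and 67.3 ± 8.30 CPM in control libraries, with control 1 inside the LTβR-Ig range. Its log2 fold change was 0.23 with an interval of -0.03 to 0.49. Gapdh averaged 25.9 ± 3.60 and 29.1 ± 3.23 CPM in LTβR-Ig and control libraries, and Pgam1, the mutase that follows Pgk1, 22.8 ± 2.34 and 22.4 ± 2.25 CPM. Eno1, the enolase of most tissues, had 369, 427, 463 and 477 CPM in LTβR-Ig libraries and 430, 345, 374 and 439 CPM in control libraries. Eno2, the neuronal enolase, had 2.80, 0, 1.02 and 3.54 CPM in LTβR-Ig libraries and 4.20, 2.30, 3.37 and 0.444 CPM in control libraries. Pkm, pyruvate kinase, spread widely in both groups, from 200.5 to 493.6 CPM in LTβR-Ig and from 162.8 to 373.6 CPM in control libraries, with a log2 fold change of 0.21 and an interval of -0.51 to 0.92.

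Lactate dehydrogenase is a tetramer of A subunits, which are known to favour making lactate from pyruvate, and B subunits, which are known to favour the reverse. Ldha had 552, 568, 541 and 556 CPM in LTβR-Ig libraries and 605, 491, 393 and 488 CPM in control libraries. The LTβR-Ig libraries lay close together inside the wider control range, and the log2 fold change of 0.17 had an interval of -0.12 to 0.45. Ldhb had 97.1, 65.2, 95.8 and 79.6 CPM in LTβR-Ig libraries, against 125, 143, 106 and 97.6 CPM in control libraries. The groups did not overlap, though LTβR-Ig 1 and control 4 were nearly level. On the TPM scale they did overlap, with 168 TPM at most in LTβR-Ig and 159 TPM at least in control libraries. The log2 fold change was -0.48 ± 0.17 (SE), with an interval of -0.87 to -0.09, an unadjusted p of 0.0208 and an adjusted p of 0.646 in edgeR's test. Of the 76-base stretches in its longest coding transcript, 16.44% also occur in 1 pseudogene.

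**Figure D4:**
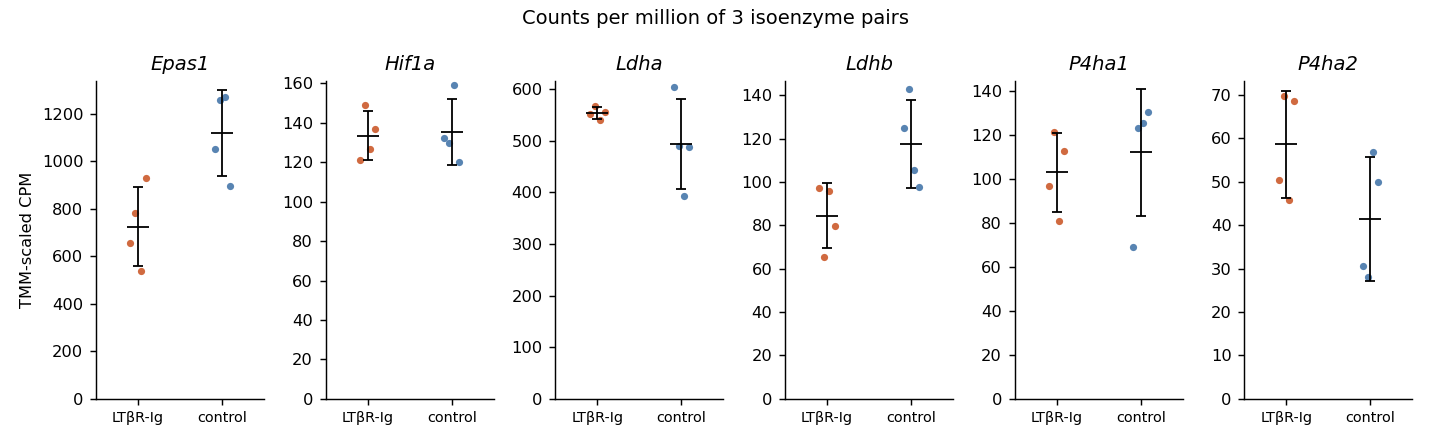
CPM of Epas1, Hif1a, Ldha, Ldhb, P4ha1 and P4ha2 in each library, LTβR-Ig left of control, with mean ± SD of 4 libraries. Epas1 overlaps by 1 library on each side, Ldhb not at all on this scale, and the groups of the other 4 genes overlap.

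PDK1 limits the use of pyruvate in mitochondria, and lactate leaves the cell through MCT4. Pdk1 averaged 20.5 ± 5.04 CPM in LTβR-Ig and 20.6 ± 11 CPM in control libraries. Slc16a3, the MCT4 gene, averaged 6.12 ± 2.09 CPM in LTβR-Ig and 4.31 ± 1.60 CPM in control libraries, with a log2 fold change of 0.51 and an interval of -0.43 to 1.44. Neither difference exceeded the spread between libraries.

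Among other HIF targets, Vegfa, the vascular growth factor, ran from 59.9 to 97.2 CPM in LTβR-Ig and from 71.3 to 134.3 CPM in control libraries. P4ha1 and P4ha2 encode catalytic subunits of the enzyme that hydroxylates collagen prolines. P4ha1 had 96.6, 121, 81.1 and 113 CPM in LTβR-Ig and 69.0, 123, 126 and 131 CPM in control libraries. P4ha2 had 50.3, 69.8, 45.8 and 68.7 CPM in LTβR-Ig libraries, against 30.5, 28.0, 57.0 and 49.9 CPM in control libraries. Control 3 and 4 lay within the LTβR-Ig range of P4ha2, and its log2 fold change was 0.50 with an interval of -0.10 to 1.11. Leaving out 1 library at a time gave 0.36 to 0.70, lowest without control 2 and highest without control 3.

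Bnip3 and Bnip3l encode mitophagy receptors, and Bnip3l is also needed when maturing red cells shed their mitochondria. Bnip3 had 74.2, 60.0, 66.1 and 94.9 CPM in LTβR-Ig and 93.9, 82.1, 77.2 and 69.5 CPM in control libraries. Bnip3l had 295, 221, 341 and 335 CPM in LTβR-Ig and 278, 255, 421 and 311 CPM in control libraries. Its highest value was in control 3, which also had the highest erythroid marker share, and in both groups replicates 3 and 4 exceeded 1 and 2 in Bnip3l and in erythroid share alike. With the erythroid marker level as a covariate its log2 fold change was -0.03, against -0.08 without it. The interval without the covariate was -0.52 to 0.35. Replicates 3 and 4 exceeded 1 and 2 in both groups for Pkm as well. The first principal component also set replicates 3 and 4 apart from 1 and 2, so this order is not particular to Bnip3l. The part of erythroid cells in the Bnip3l values was not tested.

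Ndrg1, a stress-responsive gene, averaged 61.2 ± 2.39 CPM in LTβR-Ig and 48.0 ± 19.1 CPM in control libraries, the wide control spread coming from 21.2 CPM in control 3. Ankrd37 ran from 0.340 to 3.16 CPM in LTβR-Ig and from 1.75 to 2.73 CPM in control libraries. On the opposite strand, its exons share 57 bases with Ufsp2 and 349 bases with Lrp2bp. Those genes held 25226 and 44 counts over the 8 libraries against 938 for Ankrd37, so reads may not be told apart. Car9, a membrane carbonic anhydrase often used to mark hypoxic tumour cells, was read at 0, 0.755, 1.34 and 2.37 CPM in LTβR-Ig and 0, 0, 3.05 and 1.501 CPM in control libraries. An antisense transcript, Gm12454, overlaps Car9 and held 652 counts against 497 for Car9, so its reads may not be told apart.

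The balance between related genes does not depend on scaling between libraries, so 11 isoenzyme shares of summed TPM were compared by an exact two-sided permutation test over libraries. Ldhb made up 27.0, 19.5, 27.2 and 23.2% of Ldha plus Ldhb in LTβR-Ig libraries and 30.3, 38.0, 36.2 and 29.7% in control libraries. The means were 24.2 ± 3.66 and 33.5 ± 4.18%, a difference of -9.31 percentage points. Epas1 made up 85.1, 84.7, 81.7 and 87.7% of Hif1a plus Epas1 in LTβR-Ig libraries and 89.3, 91.1, 89.4 and 88.7% in control libraries, a difference of -4.84 points. P4ha2 made up 25.6, 27.5, 27.1 and 28.7% of P4ha1 plus P4ha2 in LTβR-Ig libraries and 22.6, 13.1, 23.0 and 20.2% in control libraries, a difference of 7.52 points.

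For these 3 shares the groups did not overlap, and the exact permutation p was 0.0286, the smallest that 4 against 4 libraries can give. Adjusted over the 11 shares it was 0.105, so none passed. With 11 shares at least 7 would have to reach the smallest p before any could pass. The differences kept their sign under shares of counts without length and when lengths of the longest coding transcript were used, at -6.16 and -7.57 points for Ldhb, -5.04 and -5.62 for Epas1, and 9.17 and 10.7 for P4ha2.

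The other 8 shares had exact p-values between 0.229 and 0.800 in the permutation test. Hk2 made up 30.8 ± 5.57% of Hk1 plus Hk2 in LTβR-Ig and 25.4 ± 6.35% in control libraries. In the phosphofructokinase family, Pfkl took 45.8 ± 5.15% in LTβR-Ig and 38.0 ± 8.37% in control libraries, Pfkm 44.2 ± 9.01% and 50.4 ± 5.93%, and Pfkp 10.0 ± 4.54% and 11.6 ± 2.89%. These shares depend on the length used: per length of the longest coding transcript Pfkp took 19.2 ± 7.90% in LTβR-Ig and 22.8 ± 5.54% in control libraries, and Pfkl led Pfkm in both group means, with 49.4 and 31.4% in LTβR-Ig and 41.5 and 35.7% in control libraries. Eno2 stayed at or below 1.105% of enolase and Aldoc at or below 0.3926% of aldolase in every library. Bnip3 took 29.7 ± 3.46% and Egln3 3.86 ± 4.34% of their pairs in LTβR-Ig libraries, against 30.8 ± 6.17% and 4.36 ± 2.56% in control libraries.

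**Figure D5:**
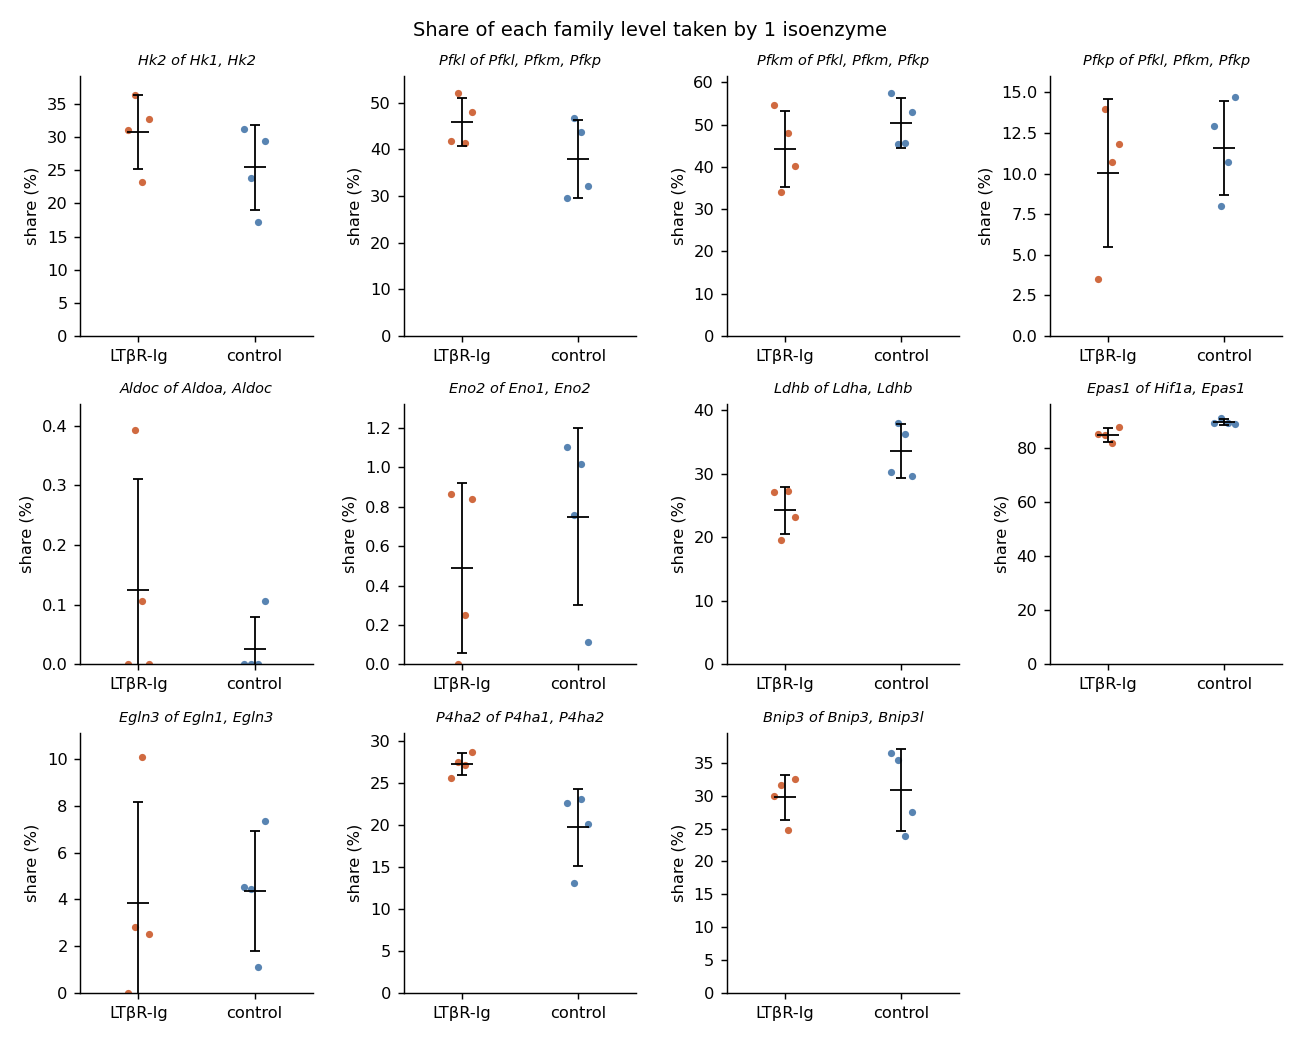
Share of each isoenzyme in the summed TPM of its family, in percent, for each library, LTβR-Ig left of control, with mean ± SD of 4 libraries. Ldhb (27.2% at most against 29.7% at least), Epas1 (87.7% against 88.7%) and P4ha2 (25.6% at least against 23.0% at most) are separated between groups, and the other 8 overlap.

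Companion lists from the same pathways held 0 genes past the adjusted threshold, which 0.0374% of all genes passed. Over all genes, 6.32% had an unadjusted p under 0.05 in either direction and 2.93% in the lower direction. Groups did not overlap for 4.89% of all genes. Of 34 other glycolysis and pyruvate genes, 29 were tested. At an unadjusted p under 0.05 there were 0 higher and 2 lower genes, with a median log2 fold change of -0.10. Slc16a1, the gene of the lactate carrier MCT1, had 97.2, 102, 99.5 and 108 CPM in LTβR-Ig libraries, against 118, 120, 133 and 129 CPM in control libraries. These groups did not overlap, and the log2 fold change of -0.30 ± 0.09 had an unadjusted p of 0.0106 and an adjusted p of 0.523 in edgeR's test. Pfkfb2, a maker of fructose 2,6-bisphosphate, had 2.67, 3.77, 1.82 and 4.86 CPM in LTβR-Ig and 10.2, 12.4, 2.69 and 5.58 CPM in control libraries. Fbp2, Gapdhs and Hkdc1 had no count in any library.

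Of 17 further HIF pathway regulators, all tested, 0 were below an unadjusted p of 0.05 and the median log2 fold change was -0.0039. Arnt, the partner of the α subunits, had 27.8, 67.7, 17.7 and 15.9 CPM in LTβR-Ig libraries and 58.4, 58.4, 47.7 and 61.0 CPM in control libraries. LTβR-Ig 2 was the highest of all 8 libraries and the other 3 LTβR-Ig libraries were the lowest. The log2 fold change was -0.81 at an unadjusted p of 0.096 and an adjusted p of 0.910 in edgeR's test. Arnt was picked out after its values were seen.

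Of 39 other HIF targets, 35 were tested. At an unadjusted p under 0.05 there were 2 higher and 2 lower genes, where 6.32% of all genes passed in either direction. The median log2 fold change of the list was -0.0050. Angptl4, a lipoprotein lipase inhibitor, had 427, 465, 378 and 604 CPM in LTβR-Ig and 293, 372, 161 and 371 CPM in control libraries, and Loxl2, a collagen crosslinker, averaged 35.3 ± 12.01 and 16.7 ± 7.53 CPM. Their log2 fold changes were 0.65 and 1.08, at adjusted p-values of 0.745 and 0.687 in edgeR's test. Ppp1r3c, a glycogen-targeting phosphatase subunit, averaged 5.68 ± 2.74 CPM in LTβR-Ig and 17.4 ± 9.95 CPM in control libraries, and Kdm4c, a histone demethylase, 32.3 ± 4.38 and 43.4 ± 4.99 CPM. Their log2 fold changes were -1.61 and -0.43, at adjusted p-values of 0.523 and 0.655. All 4 are named only because their unadjusted p was low.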

How the data were processed

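The file the authors deposited holds raw counts, not normalized, for 52636 genes and 8 libraries of polyA RNA read as 76-base pairs. Its columns were matched to samples by title, with 0 left unmatched. HISAT2, HTSeq and mm10 are named in the submitters' processing notes; their versions, the annotation and the strand option were not given in the sources used here.

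Symbols, exons and overlaps came from GENCODE M21 on GRCm38 (mm10), and promoters from RefSeq on GRCm38.p6. The test was edgeR 4.0.16 in R 4.3.3 (TMM, filterByExpr with a minimum count of 10 and total of 15, robust quasi-likelihood fit, no covariate), on all 8 libraries, with adjustment over 16045 genes and a threshold of 0.05. It was tested on simulated data. Intervals of fold changes are 95% intervals from the same fit. TPM divides counts by merged exon length. Depth was 52378101 to 64403177 counts per library.

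Members and lists were chosen with earlier results of these data known. Values per library are given for members with an unadjusted p under 0.05, the 5 highest in control TPM, Hif1a, Epas1, Vhl and the isoenzymes; Slc2a1, Car9 and Arnt were added after their values were seen. Of each companion list, members at an unadjusted p under 0.05 are named; 1 list gene is not reported here. Alternatives were DESeq2 1.42.0, its size factors, upper-quartile factors, limma 3.58.1 voom with quality weights, no filter, a filter of 10 counts in 4 libraries with a mean of 5 CPM, an erythroid marker covariate, a block on replicate number and, for the shares, no length; and leaving out each library. Lengths of the longest transcript were added after seeing the data.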

Additional observations from a re-analysis of the deposited data

Results flagged for a closer look

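In control libraries, control 1 stood apart for 3 genes. Gapdh was at 33.93 CPM there and at 27.38 to 27.54 CPM in the other 3 control libraries. Pdk1 was at 37.06 CPM there and at 14.29 to 16.62 CPM in the others, and P4ha1 at 68.99 CPM against 123.1 to 130.5 CPM. Aldoc made up 0.1064% of its family in control 4 and 0% in the other control libraries, with 0 Aldoc counts, which allows up to 3 counts in each. Each was set apart by Dixon's criterion, which looks at the gap to the nearest of the 4 libraries. The criterion was met in 3 of 66 gene and group pairs and in 1 of 22 share and group pairs. Chance alone sets apart about 1 group in 20.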

How the results depend on the processing

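No member and no isoenzyme share passed the adjusted threshold under any alternative run; the lowest adjusted p of a member was 0.0816 (Epas1, DESeq2). Of 33 log2 fold changes, 22 kept their sign under every alternative that tested them and 11 did not. There were 16 alternatives, of which the stricter filter left out Ankrd37, Car9, Egln3 and Eno2. Over all genes, the higher and lower calls (0 and 6) were 88 and 111 with DESeq2, 3 and 14 with voom, and 5 and 17 with the stricter filter. Calls higher were 2 with DESeq2 size factors, with no filter and with the erythroid covariate. Leaving out 1 library gave 0 to 2 higher and 2 to 7 lower, the 2 without control 3. With the replicate number as a block there was 1 lower call. Same-numbered libraries deviated together with correlations of -0.00082 to 0.106, over 0.1 for 1 of 4 pairs. Across groups, replicates 1 and 2 correlated at 0.019 to 0.144, and replicates 3 and 4 at -0.00082 to 0.122. Between 1 or 2 of one group and 3 or 4 of the other, the range was -0.157 to 0.0080. The design text does not say what its 4 pairs share, so the main test has no pairs. The exact sign-flip p of the Ldhb, Epas1 and P4ha2 shares in pairs was 0.125, the smallest possible.

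Signs turned under voom, the block and the erythroid covariate for Egln3 (-1.72, -0.79 and -0.37), Pdk1 (0.0015, 0.095 and 0.018) and Car9 (1.95, 1.21 and 2.88). Leaving out 1 library gave log2 fold changes of -0.077 to 0.073 for Hif1a, -0.85 to 0.62 for Egln3, -0.29 to 0.14 for Slc2a1, -0.088 to 0.29 for Hk1, -0.00046 to 1.054 for Pfkfb3, -0.043 to 0.095 for Pgam1, -0.054 to 0.38 for Pkm, -0.17 to 0.44 for Pdk1, -0.33 to 0.045 for Vegfa, -0.17 to 0.089 for Bnip3l and -0.70 to 1.16 for Car9. It gave share differences of -3.46 to 0.79 points for Bnip3, -2.58 to 0.78 for Egln3 and -2.88 to 0.61 for Pfkp. The cause was not tested.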
